A study of Mus musculus with 8 samples.

Results

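The nuclear-encoded genes of respiratory complex I were described in mouse liver after treatment with a herbal decoction. Members were the rows of the deposited gene table whose symbol begins with Nduf, leaving out 2 rows whose symbols mark them as pseudogenes by the ending -ps. This gave 48 members among 24547 genes, and 45 of them were among the 12861 genes with enough counts to be tested. The treated group consisted of 4 liver libraries from ICR mice, an outbred strain, given a high-dose decoction of Psoraleae Fructus, a fruit used in Chinese medicine, into the stomach for 30 days. The control group consisted of 4 liver libraries from ICR mice given saline. The labels state no mass dose, sex, age or batch, and no animal for each library. The p-values therefore measure the spread between these libraries, which may be technical.

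Complex I is the largest enzyme of the mitochondrial respiratory chain. It takes electrons from NADH, passes them through a flavin and a chain of iron-sulfur clusters in its peripheral arm to ubiquinone, and pumps protons through its membrane arm. Core subunits carry out the chemistry, accessory subunits surround and stabilise them, and assembly factors build the enzyme without staying in it. The core subunits of the membrane arm are encoded in mitochondrial DNA and all other subunits in the nucleus. In hepatocytes the enzyme reoxidises the NADH that fatty acid oxidation produces.

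Total counts per library ran from 16398729 to 20159132 in the treated group and from 15864399 to 19153845 in the control group. Correlations of log2 expression across genes were 0.968 to 0.979 among treated libraries and 0.925 to 0.962 among control libraries. Hepatocyte markers summed to 139200 to 156400 CPM (counts scaled to library size) in treated libraries and 125800 to 163100 CPM in control libraries, with 1 of 10 markers called higher by edgeR, DESeq2 and limma-voom alike. No hepatocyte marker was called lower by edgeR, 1 was lower at an unadjusted p under 0.05, and DESeq2 and limma-voom each called 1 lower. Markers of other liver cells were lower in part, beside 3.75% of all genes tested called lower by edgeR, 8.38% by DESeq2 and 7.25% by limma-voom. Of 10 macrophage markers edgeR called 2 lower, DESeq2 and limma-voom 5 each (summed level 357 to 791 CPM treated, 558 to 1581 CPM control). Of 5 tested T and NK cell markers edgeR called 3 lower, DESeq2 4 and limma-voom 3 (5.21 to 7.21 CPM treated, 9.71 to 33.25 CPM control). Of 7 endothelial markers each tool called 2 lower (193 to 314 CPM treated, 282 to 402 CPM control). Of 8 stellate cell markers edgeR called 1 lower, DESeq2 2 and limma-voom 3 (265 to 366 CPM treated, 390 to 473 CPM control). B cell, neutrophil and cholangiocyte markers had no call by any of these tools among the 4, 4 and 3 tested, with 1, 1 and 0 lower at an unadjusted p under 0.05 in edgeR, and pancreas and skeletal muscle markers stayed below 0.5 CPM in sum, with Mb listed at 0 in every library. The part of these markers in the results below was not tested, and in bulk tissue fewer cells of a type and less RNA per cell cannot be told apart.

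About as many nuclear-encoded complex I genes were called higher in treated livers as were not called, and those called included accessory subunits of both arms. Of the 45 members tested, 23 rose (51.1%), against 5.46% called higher over all genes tested, and 0 fell, against 3.75% called lower over all genes tested (edgeR quasi-likelihood test, Benjamini-Hochberg adjusted p under 0.05 over all genes). In either direction 9.21% of all genes tested were called. At an unadjusted p under 0.05, 31 members were higher and 1 was lower, beside 3777 of the 12861 genes tested in either direction. DESeq2 called 29 members higher and 0 lower, beside 9.24% and 8.38% of the genes it tested. With limma-voom, run with quality weights for the libraries, 28 members were higher and 1 lower, beside 9.28% and 7.25% of genes. The member lower with limma-voom was the assembly factor Ndufaf4. The median log2 fold change, treated minus control, was 0.54 over the members and -0.04 over all genes tested, and 39 members had a positive and 6 a negative value. In 26 members every treated library lay above every control library, a pattern found in 10.2% of all genes tested. The opposite pattern, found in 8.7% of all genes tested, occurred in 0 members. These 26 were the 23 called members and Ndufb4, Ndufb7 and Ndufa9. Called members lay on 14 of the 17 chromosomes that hold members.

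**Figure D1:**
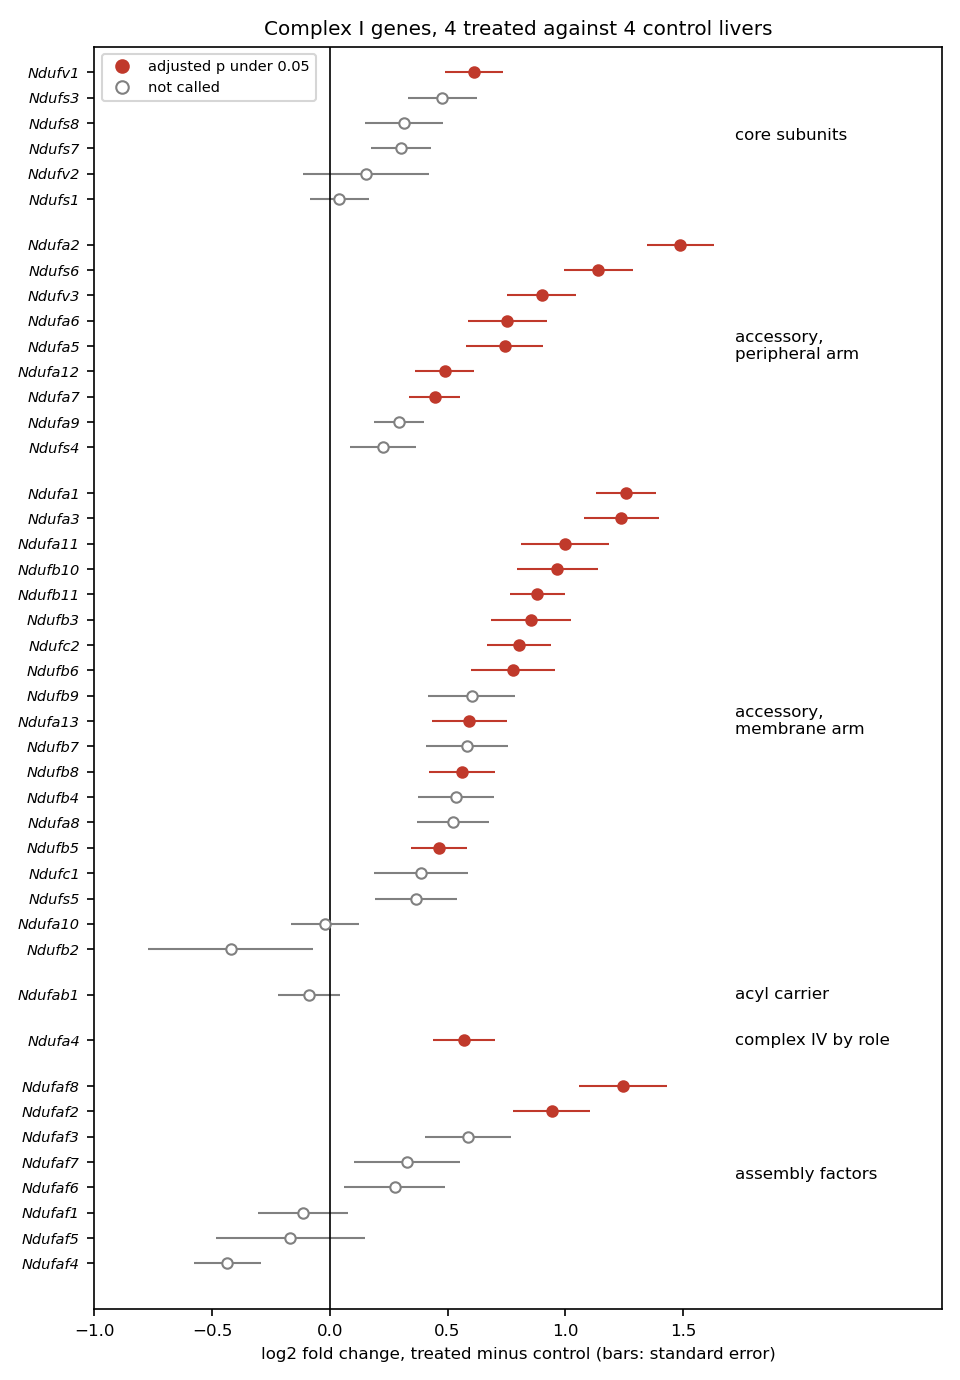
Log2 fold change (treated minus control, x axis) of 44 of the 45 tested complex I genes, ordered by role down the page, with bars for the standard error and filled points for genes called at an adjusted p under 0.05. Filled points sit to the right of 0 in every role but the acyl carrier Ndufab1, and Ndufa2 lies farthest right at 1.49.

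The count of 23 depended on single libraries. Leaving out treated library 3 left 7 members called higher, beside 1.12% of all genes tested. Without treated 1 there were 15 (beside 2.77% of all genes), and without treated 4 there were 12 (beside 2.57%). Without control 2 there were 13 (beside 3.15%), and without control 3 there were 11 (beside 2.18%). Without control library 4 it was 31, beside 9.35% of all genes. The lowest and the highest count of members thus came with the lowest and the highest share over all genes. Ndufa1, Ndufa2, Ndufa3, Ndufs6, Ndufv3, Ndufb11 and Ndufaf8 were called with each of the 8 libraries left out in turn. Ndufa11, Ndufc2, Ndufb10 and Ndufaf2 lost the call only without treated library 3. The other 12 called members lost it in several of these fits. All 23 called members kept a positive fold change in each of the 25 settings tried.

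The members' summed level also separated the groups. In deposited FPKM (fragments per kilobase of gene, scaled to library total), the 48 members summed to 2055, 2035, 2355 and 2254 in treated libraries 1 to 4 and to 1296, 1357, 1327 and 1630 in control libraries 1 to 4. Their share of all counts was 0.287 to 0.329% in treated libraries and 0.203 to 0.249% in control libraries. In both measures every treated library lay above every control library, and control library 4 came nearest to the treated libraries. Within the control group, library 4 held the highest value of 37 of the 45 tested members and library 2 the lowest value of 28. Within the treated group, library 3 held the highest value of 27.

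Among the core subunits of the peripheral arm, 2 of 7 rose, beside 5.46% of all genes tested. All 7 had positive fold changes, and their median was 0.31. Ndufv1, which binds NADH and the flavin, was at 118, 121, 135 and 141 CPM in treated libraries 1 to 4 and at 83.4, 75.2, 80.0 and 98.8 CPM in control libraries 1 to 4 (log2 fold change 0.61, SE 0.12, adjusted p = 0.0196). The groups did not overlap for Ndufv1, with control 4 nearest to the treated libraries. Ndufv1 lost its call without treated 3, treated 4 or control 3.

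Ndufs1, Ndufs3, Ndufs7, Ndufs8 and Ndufv2 were not called and their groups overlapped. Ndufs3, a subunit at the ubiquinone end of the arm, was at 102, 94.8, 120 and 124 CPM in treated libraries and at 77.5, 65.6, 76.8 and 96.9 CPM in control libraries (log2 fold change 0.48, adjusted p = 0.0683), the only overlap being between treated 2 and control 4. Ndufs8, which carries iron-sulfur clusters, was at 56.2, 56.7, 72.2 and 65.2 CPM in treated libraries and at 41.9, 44.1, 47.5 and 67.8 CPM in control libraries (log2 fold change 0.31, adjusted p = 0.24). Control 4 alone reached the treated range of Ndufs8, and without it both Ndufs3 and Ndufs8 were called higher.

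Ndufs7, which holds the last iron-sulfur cluster before ubiquinone, was at 85.4, 69.9, 89.6 and 81.0 CPM in treated libraries and at 77.3, 58.8, 59.5 and 68.6 CPM in control libraries (log2 fold change 0.30, adjusted p = 0.154). Ndufs1, the largest core subunit, was at 103, 99.7, 108 and 118 CPM in treated libraries and at 93.7, 92.9, 106 and 124 CPM in control libraries (log2 fold change 0.04, SE 0.13, adjusted p = 0.863). Control 4 held the highest Ndufs1 value of all. Ndufv2, an iron-sulfur partner of Ndufv1, was at 119, 52.2, 135 and 125 CPM in treated libraries and at 94.4, 87.9, 87.6 and 118 CPM in control libraries (log2 fold change 0.15, SE 0.27, adjusted p = 0.738). Treated library 2 was the lowest of all libraries for Ndufv2, while the other 3 treated libraries lay above all 4 control libraries. Its partner Ndufv1 showed no such drop in treated library 2.

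Of the accessory subunits of the peripheral arm 7 of 9 rose, beside 5.46% of all genes tested. All 9 had positive values, and they had a median log2 fold change of 0.74. Ndufa2, a small subunit with a thioredoxin-like fold, was at 87.3, 72.2, 104 and 91.4 CPM in treated libraries and at 31.5, 28.6, 29.0 and 37.2 CPM in control libraries (log2 fold change 1.49, SE 0.14, adjusted p = 0.00213). Ndufs6 (chromosome 13, 73319838 to 73328542), a zinc-binding subunit near the NADH end, was at 51.5, 64.5, 76.4 and 64.0 CPM in treated libraries and at 27.9, 25.9, 27.8 and 34.7 CPM in control libraries (log2 fold change 1.14, SE 0.15, adjusted p = 0.00501). The mean of Ndufa2 was 2.81 times as high in treated as in control libraries, and for both genes no treated library came near the control range. Ndufv3 (chromosome 17, 31520115 to 31531331), a small accessory subunit at the NADH end, was at 43.8, 57.2, 65.7 and 57.8 CPM in treated libraries and at 27.1, 27.1, 31.0 and 35.1 CPM in control libraries (log2 fold change 0.90, SE 0.15, adjusted p = 0.00993). Treated 1 was the lowest treated library for Ndufs6 and Ndufv3 and still above every control.

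Ndufa5, Ndufa6, Ndufa7 and Ndufa12 also rose, with log2 fold changes of 0.45 to 0.75. Ndufa6, an LYR-motif subunit that binds an acyl carrier protein, ran against the common order of libraries. It was highest in treated 1 (229 CPM) among treated libraries, at 156 to 195 CPM in the others, and highest in control 1 (136 CPM) among control libraries, at 90.7 to 110 CPM in the others. Ndufa9, which holds a nucleotide near the ubiquinone site, had a log2 fold change of 0.29 (adjusted p = 0.104) with groups that did not overlap, and Ndufs4, mutated in a mouse model of Leigh syndrome, one of 0.23 (adjusted p = 0.312).

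**Figure D2:**
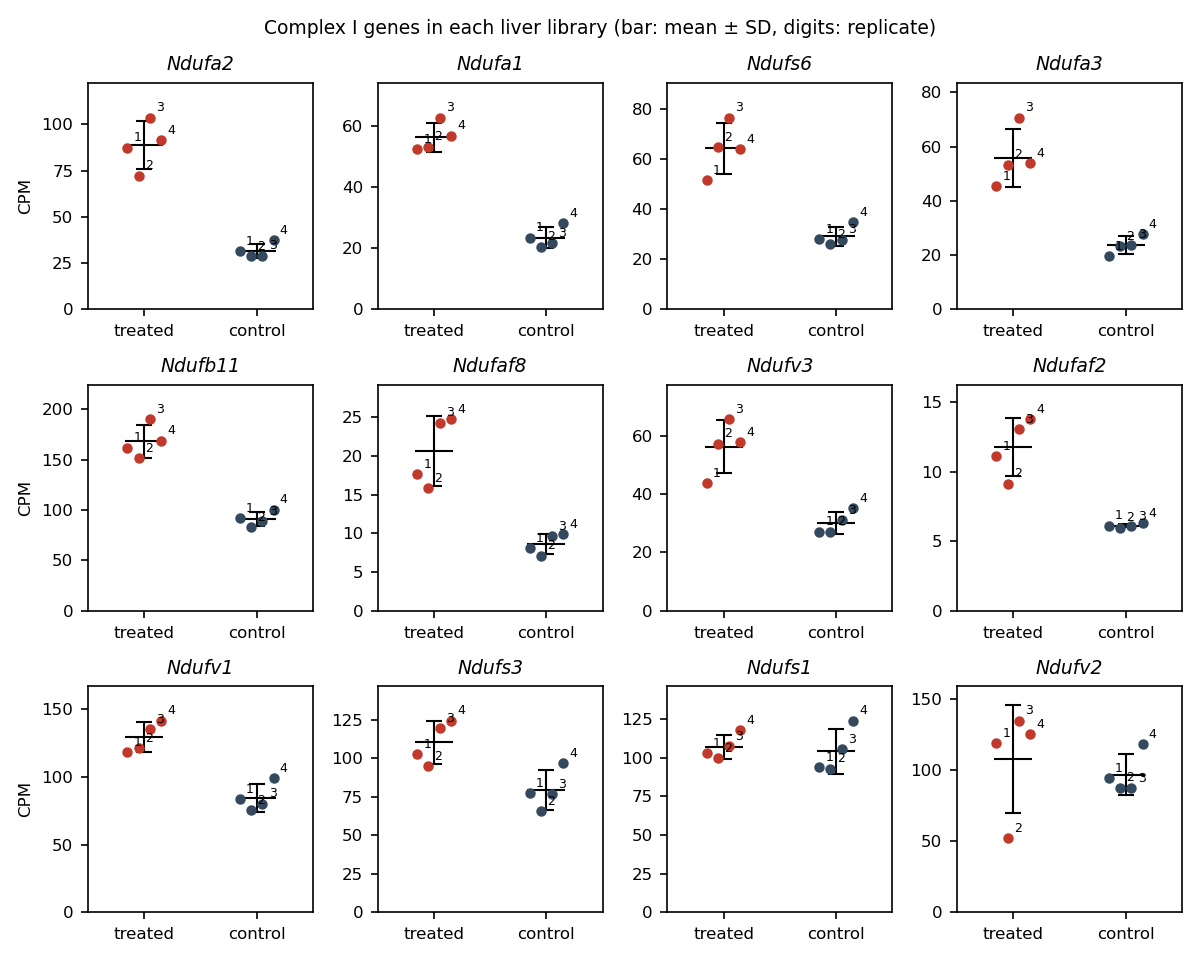
Normalised expression (CPM, y axis, from 0) of 12 complex I genes in each library, treated libraries on the left and control libraries on the right of each panel, with bars for the group mean and SD and digits for the replicate. For Ndufa2 the treated libraries sit at 72.2 to 104 CPM and the control libraries at 28.6 to 37.2 CPM, while treated library 2 of Ndufv2 lies alone at 52.2 CPM.

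In the membrane arm 11 of 19 accessory subunits rose, beside 5.46% of all genes tested. Their median log2 fold change was 0.59, and 17 had a positive value. Ndufa1 (chromosome X, 37187588 to 37191163), a short membrane protein needed early in assembly, was at 52.3, 53.1, 62.6 and 56.7 CPM in treated libraries and at 23.4, 20.5, 21.8 and 28.2 CPM in control libraries (log2 fold change 1.26, SE 0.13, adjusted p = 0.00267). Ndufa3 (chromosome 7, 3617373 to 3620327), another single-pass membrane subunit, was at 45.4, 53.4, 70.7 and 54.0 CPM in treated libraries and at 19.7, 23.2, 23.9 and 27.9 CPM in control libraries (log2 fold change 1.24, SE 0.16, adjusted p = 0.00501). Ndufb11 (chromosome X, 20615326 to 20617619), a membrane subunit mutated in human cardiomyopathy and microphthalmia syndromes, was at 162, 151, 190 and 169 CPM in treated libraries and at 92.0, 83.3, 89.0 and 100.5 CPM in control libraries (log2 fold change 0.88, SE 0.12, adjusted p = 0.00558). In all of these genes the lowest treated library exceeded the highest control library by a wide margin.

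Ndufb10, which carries cysteine motifs and lies on the intermembrane side, was at 92.5, 90.5, 124 and 121 CPM in treated libraries and at 51.9, 43.7, 53.1 and 70.1 CPM in control libraries (log2 fold change 0.97, SE 0.17, adjusted p = 0.013). Ndufc2 was at 56.2, 43.6, 58.5 and 54.9 CPM in treated libraries and at 31.3, 25.6, 30.2 and 35.2 CPM in control libraries (log2 fold change 0.80, SE 0.14, adjusted p = 0.0112). Treated libraries 3 and 4 stood above treated 1 and 2 for Ndufb10, whereas treated 2 alone was low for Ndufc2. Ndufa11, at the junction with complex III in supercomplexes, was at 13.2, 14.2, 20.4 and 17.6 CPM in treated libraries and at 8.05, 7.71, 6.73 and 10.2 CPM in control libraries (log2 fold change 0.998, SE 0.19, adjusted p = 0.0151). Ndufb3 was at 32.1, 31.8, 41.5 and 43.7 CPM in treated libraries and at 18.2, 18.1, 19.0 and 27.0 CPM in control libraries (log2 fold change 0.85, SE 0.17, adjusted p = 0.0192). Control 4 again came closest to the treated group in both.

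Ndufa13, Ndufb5, Ndufb6 and Ndufb8 were also called higher, with log2 fold changes of 0.46 to 0.78, and each lost the call in most fits that left out a library. Ndufa8, Ndufb4, Ndufb7, Ndufb9, Ndufc1 and Ndufs5 had positive values of 0.37 to 0.60 without a call. Ndufa10, a kinase-like subunit, was level at 115 ± 18.4 CPM in treated and 116 ± 13.2 CPM in control libraries (SD, n = 4 each; log2 fold change -0.02, SE 0.14). Ndufb2 had 22, 22, 17 and 13 counts in treated libraries and 24, 22, 34 and 18 counts in control libraries (log2 fold change -0.42, SE 0.35, adjusted p = 0.453). No change of Ndufb2 was detected at these low counts, and its annotated exons share 145 bases with the gene Gm42420 on the same strand. Ndufab1, the mitochondrial acyl carrier protein present in both arms, was at 24.1 ± 3.96 CPM in treated and 25.6 ± 1.30 CPM in control libraries (SD, n = 4 each; log2 fold change -0.09, SE 0.13).

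Ndufa4, named as a complex I subunit but since placed in complex IV (cytochrome c oxidase), was the most abundant member by FPKM and rose as well. It was at 254, 221, 293 and 254 CPM in treated libraries and at 165, 164, 162 and 198 CPM in control libraries (log2 fold change 0.57, SE 0.13, adjusted p = 0.0307). The groups did not overlap, and the call was lost without treated 1, treated 3, treated 4, control 1, control 2 or control 3. Its paralog Ndufa4l2, a hypoxia-induced gene, had 4 to 10 counts in treated and 7 to 17 counts in control libraries and was not tested. The remaining untested rows, Ndufb4c and Ndufs6b, are processed pseudogenes in GENCODE M21 with 0 to 5 counts per library.

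The Ndufaf assembly factors ran from -0.43 to 1.25 in log2 fold change, with 3 at negative values and a median of 0.30. Of the 8, 2 were called higher, beside 5.46% of all genes tested. Ndufaf8 (chromosome 11, 120098928 to 120100705), which stabilises the methyltransferase-like factor Ndufaf5, was at 17.6, 15.8, 24.3 and 24.7 CPM in treated libraries and at 8.11, 7.14, 9.62 and 9.87 CPM in control libraries (log2 fold change 1.25, SE 0.19, adjusted p = 0.00799). Ndufaf2 (chromosome 13, 108002715 to 108158623), a paralog of Ndufa12 that holds its place until late in assembly, was at 11.2, 9.15, 13.1 and 13.8 CPM in treated libraries and at 6.13, 5.999, 6.10 and 6.30 CPM in control libraries (log2 fold change 0.94, SE 0.16, adjusted p = 0.0122). The control libraries of Ndufaf2 were almost identical, and all treated libraries lay above them. Its placeholder partner Ndufa12 had a log2 fold change of 0.49 (adjusted p = 0.0402).

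Ndufaf4, which acts with Ndufaf3 on the ubiquinone end of the peripheral arm, had the lowest fold change of the members. It was at 34.0, 25.0, 28.2 and 27.1 CPM in treated libraries and at 46.6, 33.8, 39.6 and 34.6 CPM in control libraries (log2 fold change -0.43, SE 0.14, adjusted p = 0.0812). Only treated 1 and control 2 overlapped for Ndufaf4, and without control 4 it was called lower. Ndufaf3 itself had a positive value of 0.59 (adjusted p = 0.0701). Ndufaf5, the partner of Ndufaf8, was at 2.15, 2.58, 3.52 and 4.30 CPM in treated libraries and at 2.22, 3.88, 2.96 and 4.99 CPM in control libraries (log2 fold change -0.17, SE 0.32, adjusted p = 0.763), with full overlap. Ndufaf1, Ndufaf6 and Ndufaf7 had log2 fold changes of -0.12, 0.28 and 0.33 without a call.

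Of 11 further assembly factors listed by other names, 10 were in the table and tested. Of these 1 rose, beside 5.46% of all genes tested. Foxred1, an oxidoreductase needed for assembly, had a log2 fold change of 0.43 (SE 0.12, adjusted p = 0.0478), and the median of the 10 was 0.26. The 7 core subunits encoded in mitochondrial DNA had negative log2 fold changes throughout, with a median of -0.46. None was called by edgeR in either direction, and 3 were lower at an unadjusted p under 0.05. DESeq2 called 2 lower and limma-voom 1, beside 8.38% and 7.25% of all genes called lower by these tools. The values were -0.10 for mt-Nd1, -0.41 for mt-Nd2, -0.62 for mt-Nd3, -0.46 for mt-Nd4, -0.24 for mt-Nd4l, -0.71 for mt-Nd5 (adjusted p = 0.0891) and -0.92 for mt-Nd6 (adjusted p = 0.0637). Low levels make 2 of these uncertain, mt-Nd3 (means of 2.52 CPM treated and 3.885 CPM control, SE 0.33) and mt-Nd4l (1.90 and 2.25 CPM, SE 0.33). The other mt-Nd genes averaged 405 CPM or more in both groups. For mt-Nd5 and mt-Nd6 every treated library lay below every control library. Libraries were made from poly-A RNA without marking strand, so reads of mt-Nd6 and of the transcripts on the other strand cannot be told apart. Mitochondrial transcripts as a whole took 3.96 to 5.47% of counts in treated and 5.19 to 6.45% in control libraries.

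Nuclear genes of the other respiratory complexes were also called higher, beside 5.46% of all genes tested. Counts of genes called higher were 1 of 4 for complex II, 5 of 9 for complex III, 4 of 10 for complex IV and 6 of 15 for complex V (ATP synthase), with median log2 fold changes of 0.30, 0.58, 0.51 and 0.53. With the length offset described below the counts were 1, 1, 1 and 6, beside 4.06% of all genes, and with the length and GC offset 1, 1, 3 and 6, beside 3.01%. None of these 38 genes was called lower by edgeR, DESeq2 or limma-voom, nor was any lower at an unadjusted p under 0.05. Uqcr11 of complex III (1.39, adjusted p = 0.00267) and Atp5k of ATP synthase (2.31, adjusted p = 0.00213) had the smallest adjusted p of their lists. Of 13 tested regulators of mitochondrial biogenesis, 1 was called higher and 0 lower, beside 5.46% and 3.75% of all genes tested. Their median log2 fold change was 0.04, with 8 positive and 5 negative values. At an unadjusted p under 0.05 in edgeR, 1 was higher and 3 were lower. For Tfb1m (-0.58, not called) every treated library lay below every control library. Esrra, an orphan nuclear receptor that activates respiratory genes, was at 37.6, 38.2, 33.0 and 34.7 CPM in treated libraries and at 21.3, 14.1, 13.8 and 15.7 CPM in control libraries (log2 fold change 1.15, SE 0.15, adjusted p = 0.00558).

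Gene length went with the fold changes, and complex I genes are short. The length behind each FPKM value, recovered from count, FPKM and library total, had a median of 1535 bases over the members (348 to 8086) and 4269 bases over all genes tested. Across the 45 members the rank correlation of fold change with this length was -0.59, and across all genes tested it was -0.24. With GC content of the longest transcript of each gene these correlations were 0.44 and 0.31. Both are across genes of the same 8 libraries, which are not independent replicates. Under 1000 bases, 8 of 11 members were called higher, beside 18.9% of the 514 genes of that length. From 1000 to under 2000 bases it was 9 of 17 members, beside 10.8% of 1512 genes, and at 2000 bases or more 6 of 17 members, beside 4.07% of 10835 genes. The median log2 fold changes of members in these length classes were 0.85, 0.57 and 0.33, and those of all genes 0.44, 0.16 and -0.07.

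**Figure D3:**
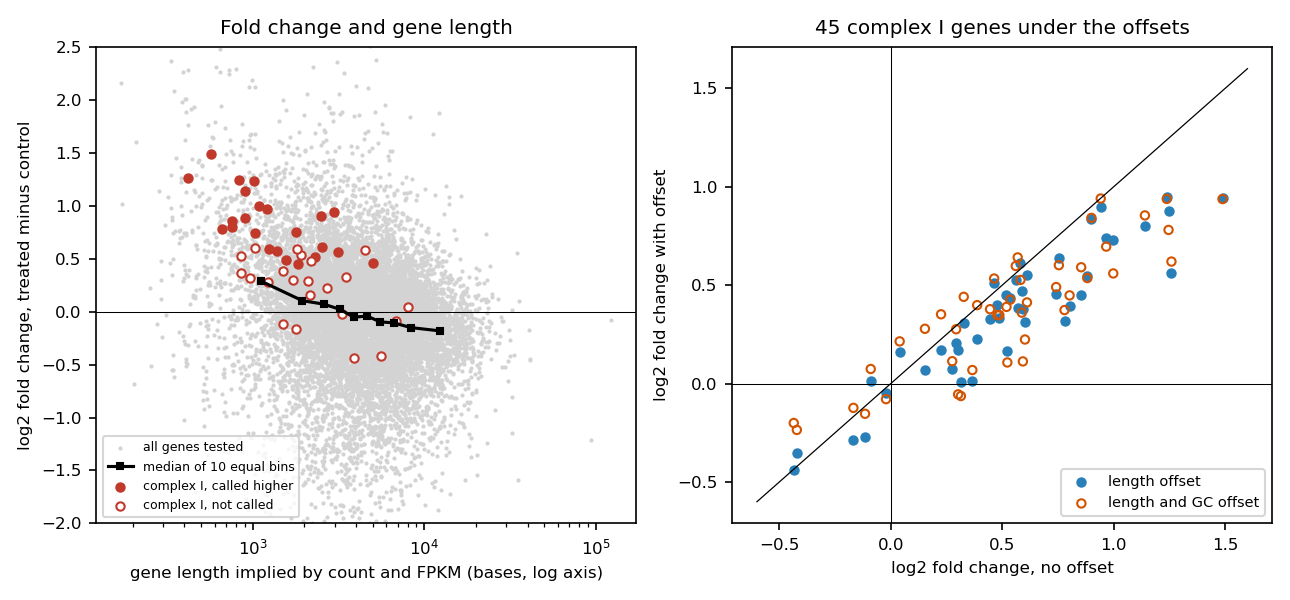
Log2 fold change (treated minus control, y axis) against gene length implied by count and FPKM (bases, log x axis) for the complex I genes and all genes tested, with the median of all genes in 10 bins of equal gene number (left panel), and the members' fold change with an offset against that without (right panel). The members lie mostly above the median line, which falls with length, and 131 genes lie outside the plotted fold range.

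When the length trend of each library was taken out as an offset, 12 members were called higher, beside 4.06% of all genes tested, and their median log2 fold change was 0.38. With length and GC content taken out together, 14 were called higher, beside 3.01% of all genes, and the median was 0.39. By role, 1 of 7 core subunits and 2 of 8 Ndufaf factors were called higher with the length offset. The peripheral arm had 3 of 9 accessory subunits called and the membrane arm 6 of 19. With both terms these counts were 0, 2, 3 and 8, beside the shares of all genes given above. Differences between roles were not tested. Ndufa1, Ndufa2, Ndufa3, Ndufs6, Ndufv3, Ndufb5, Ndufb10, Ndufb11, Ndufaf2 and Ndufaf8 were called under both offsets. Members that lost the call under both included Ndufa5, Ndufa6, Ndufa7, Ndufa12, Ndufa13 and Ndufb6. Ndufa2 kept a log2 fold change of 0.95 and 0.94, and Ndufa1, with a length of 419 bases, one of 0.56 and 0.62. No member was called lower under either offset, beside 2.2% of all genes with the length offset and 1.46% with both terms. Of the mt-Nd genes, 2 were called lower with the length offset and 1 with both terms.

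The same lengths bear on the levels. For 45 of the 48 members the implied length equalled the union of all annotated exons in GENCODE M21 within 1 base, as it did for 22277 of the 22927 genes with counts. Such a union can be much longer than the main transcript. Of 46 members with a principal transcript, 7 had an implied length at least 3 times as long, namely Ndufb7, Ndufb5, Ndufb8, Ndufaf2, Ndufa7, Ndufa6 and Ndufs1. Ndufb7 was divided by 4522 bases where its principal transcript has 623. FPKM ranks such genes lower than their transcripts per length would, and it leaves comparisons between groups untouched.

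By deposited FPKM, the members ran over a wide range in both groups. Ndufb11 was at 182 ± 10.02 FPKM and Ndufa4 at 181 ± 13.4 FPKM in treated libraries, which do not differ beyond their spread, followed by Ndufa2 at 152 ± 15.8 FPKM and Ndufa1 at 132 ± 6.57 FPKM (SD, n = 4). In control libraries Ndufa4 came first at 126 ± 13.0 FPKM, then Ndufb11 at 102 ± 5.88 FPKM, while Ndufa6 was at 61.5 ± 7.50, Ndufa1 at 56.7 ± 6.88 and Ndufa2 at 55.9 ± 6.14 FPKM (SD, n = 4). Ndufa6 averaged 101 ± 17.7 FPKM in treated libraries (SD, n = 4). Its place depends on the length used, since scaled to its principal transcript it would be at 309 in treated and 188 in control libraries, beside 132 and 56.7 for Ndufa1. Ndufb2 was the lowest tested member in both groups. Its level is uncertain, since its exons share 145 bases with Gm42420 on the same strand and 302 with Gm16272 and Braf on the other. Braf held 263 to 565 counts per library.

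**Figure D4:**
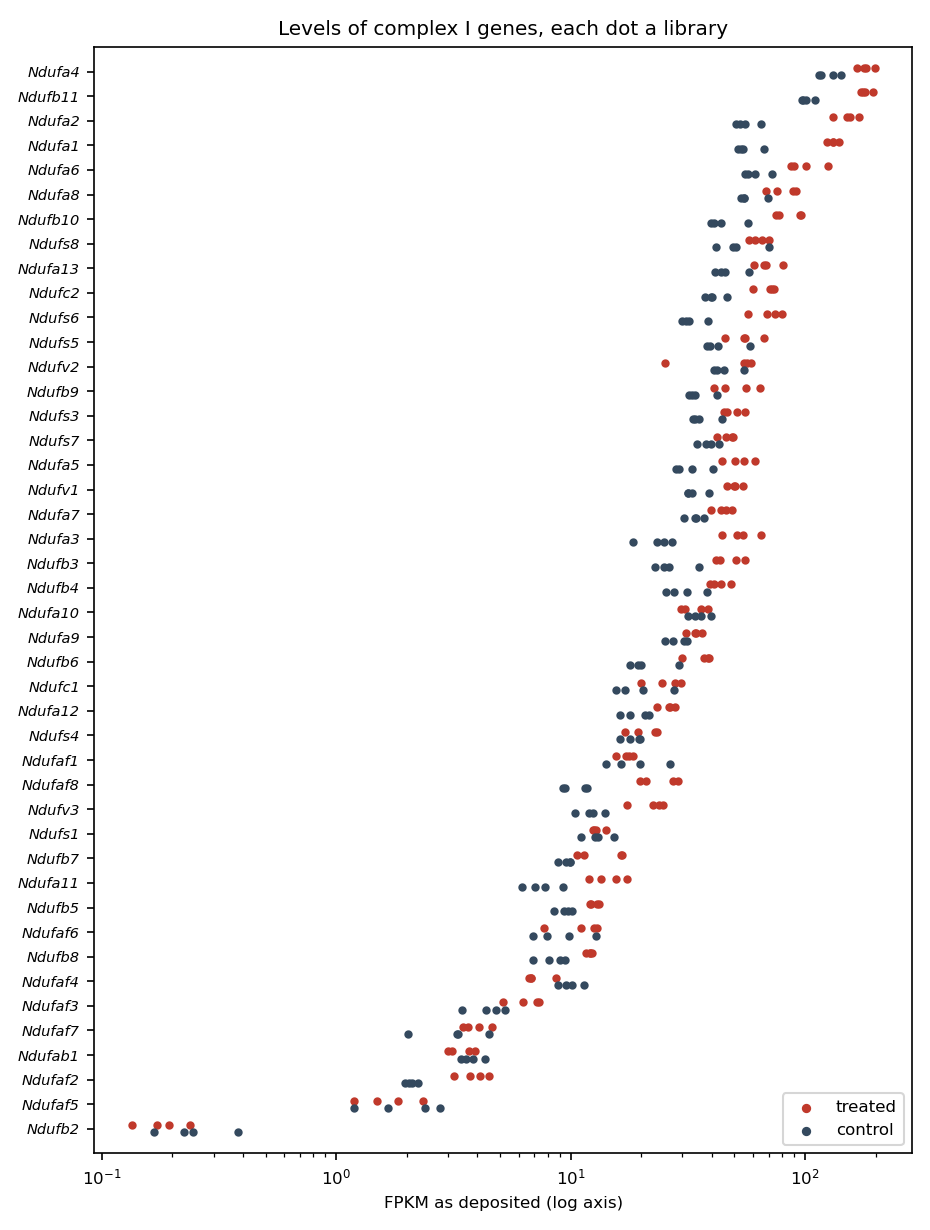
Deposited FPKM (log x axis) of 44 tested complex I genes, ordered by mean level down the page, with 4 treated and 4 control libraries as points. Ndufa4 and Ndufb11 lie at the high end and Ndufb2 at the low end, and the groups separate most for Ndufa2 and Ndufa1.

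Some complex I genes begin close to a gene on the other strand. Of the members, 21 have a protein-coding gene on the opposite strand whose annotated 5′ end lies within 1000 bases of their own. The share of all genes with such a neighbour was not counted, so the number describes these members only. In 12 of these pairs the member was called higher and the neighbour was tested. Among those 12, 11 neighbours were not called and 1 was called higher, beside 9.21% called in either direction over all genes tested. The median log2 fold change of these neighbours was -0.0048, beside -0.04 over all genes tested. The pairs were picked by the member's call, so the member's own value is a description here and its distance from the neighbour is no result. Ndufs6 (1.14) stands beside Mrpl36 (0.08), a mitochondrial ribosome gene, Ndufa2 (1.49) beside the splicing gene Ik (-0.16) and Ndufa1 (1.26) beside Rnf113a1 (-0.18). The exception was Ndufa7 (0.45), whose neighbour Rps28, a ribosomal protein gene, was called higher with a log2 fold change of 1.48. In 2 pairs an uncalled member faced a called neighbour, Ndufs1 (0.04) beside Eef1b2 (0.51, higher) and Ndufaf7 (0.33) beside Cebpz (-0.43, lower). Differences between the genes of a pair were not tested.

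**Figure D5:**
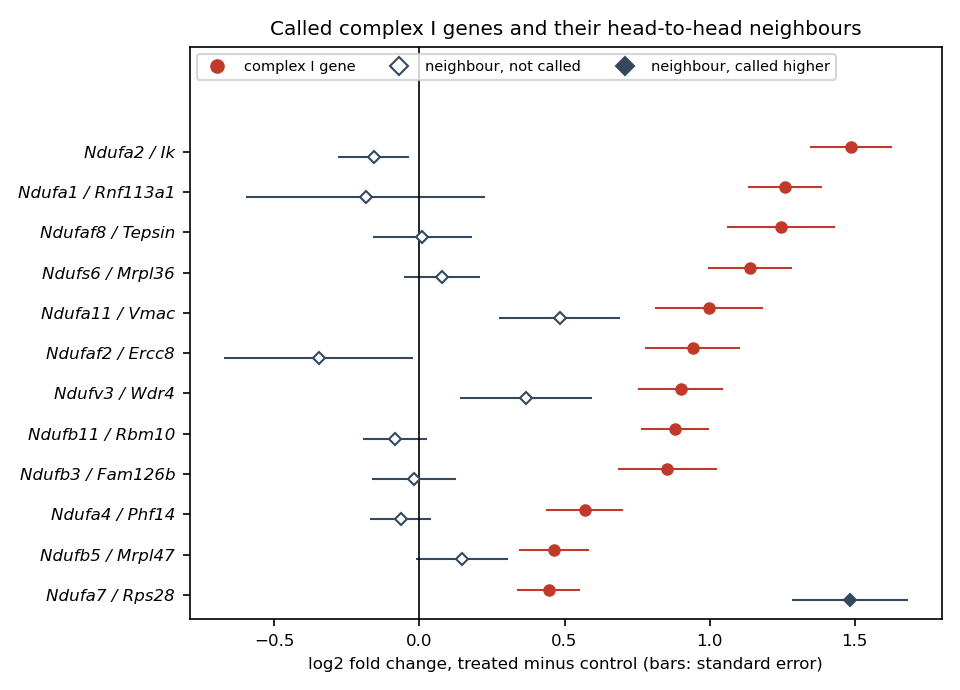
Log2 fold change (treated minus control, x axis) of 12 called complex I genes and their head-to-head neighbours, 1 pair per line, with bars for the standard error. The pairs were picked because the complex I gene was called, and of the neighbours only Rps28, beside Ndufa7, was called higher.

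The stretches between the RefSeq starts of 5 such pairs are shown because they lie between a called member and its neighbour. They were taken from RefSeq promoter sequences (GRCm38.p6) and are written 5′ to 3′ in the direction of the complex I gene, ending just before its RefSeq start. RefSeq starts differ from the GENCODE 5′ ends that defined the pairs. By GENCODE the genes Ndufa7 and Rps28 lie 10 bases apart, and Ndufa7 begins at 33824572, inside the stretch shown. Ndufaf8 (at 120098928, within the letters CCGGAAG) and Ndufb3 (at 58586384) also begin inside their stretches by GENCODE, while Ndufa11 and Vmac overlap. Capitals mark matches, on either strand, to CCAAT (NF-Y), GGGCGG (SP1), CCGGAAG (GABPA) or CGCANGCG (the core of the NRF1 motif, N being any base).
Ndufaf8/Tepsin chr11:120098732-120098933 (+ strand): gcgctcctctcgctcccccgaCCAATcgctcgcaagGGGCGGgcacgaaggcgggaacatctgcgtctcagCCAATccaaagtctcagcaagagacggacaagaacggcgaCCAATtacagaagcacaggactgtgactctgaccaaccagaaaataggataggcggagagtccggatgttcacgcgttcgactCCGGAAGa
Ndufaf2/Ercc8 chr13:108158626-108158737 (- strand): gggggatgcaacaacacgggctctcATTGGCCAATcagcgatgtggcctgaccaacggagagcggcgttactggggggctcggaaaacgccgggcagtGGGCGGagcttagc
Ndufb3/Fam126b chr1:58586334-58586396 (+ strand): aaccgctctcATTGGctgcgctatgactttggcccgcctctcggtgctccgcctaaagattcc
Ndufa11/Vmac chr17:56717700-56717761 (+ strand): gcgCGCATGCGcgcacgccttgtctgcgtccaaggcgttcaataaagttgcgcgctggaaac
Ndufa7/Rps28 chr17:33824563-33824644 (+ strand): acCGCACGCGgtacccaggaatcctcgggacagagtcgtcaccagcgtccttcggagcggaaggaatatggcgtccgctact
The Ndufaf8 stretch of 202 bases holds 3 CCAAT, 1 GGGCGG and 1 CCGGAAG match, and its neighbour Tepsin had a log2 fold change of 0.01 beside 1.25 for Ndufaf8. The Ndufaf2 stretch of 112 bases holds 2 CCAAT matches that meet head to head and 1 GGGCGG match, with Ercc8 at -0.35. The Ndufb3 stretch of 63 bases holds 1 CCAAT match, with Fam126b at -0.02. The Ndufa11 stretch of 62 bases holds 1 CGCANGCG match, with Vmac at 0.48. The Ndufa7 stretch of 82 bases, the only one here beside a called neighbour, holds 1 CGCANGCG match as well.

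Over the 40 members matched to a RefSeq promoter, in the 250 bases before the start and on both strands, CCAAT was found in 14 (35.0%, beside 37.5% of 27025 genes) and GGGCGG in 19 (47.5%, beside 35.4%). CCGGAAG was found in 5 (12.5%, beside 7.83%), CGCANGCG in 11 (27.5%, beside 7.65%) and ATGGCGGC, a YY1 motif, in 1 (2.5%, beside 1.19%). Of the 11 members with CGCANGCG, 7 are among the 21 called members with a promoter. More than one form of this motif was searched and its share depends on the form, CGCATGCG being found in 3 members (7.5%, beside 1.75%). AAGGTCA, the motif of the receptor that Esrra encodes, was found in 3 (7.5%, beside 4.7%), and none of these 3 was among the 21 called members with a promoter. The 27025 genes were neither limited to genes tested here nor matched to the members in GC content of the promoter. The part of this in the shares was not tested. A match describes letters in a window and is not a binding site.

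Few members had near-identical copies. At 95% identity over at least 300 bases, 39 members had no copy in another gene. For Ndufa12 the pseudogene Gm15920 is 99.5% identical over 402 bases and held 237 counts on average, beside 626.5 for Ndufa12 itself, so the level of Ndufa12 is uncertain. For each of the other 6 protein-coding members with such a copy the copies held at most 20.9 counts on average each. How reads that fit both a member and its copy were counted was not examined, so the levels of these members are uncertain too. Exon bases were shared with another annotated gene by 19 members, 17 of them with a gene on the opposite strand. Among called members, Ndufaf2 shares 1955 of its 2978 exon bases with B230220B15Rik, which had 0 counts in 7 libraries and 1 in the other, Ndufa13 375 with Tssk6 (0 to 8 counts) and Ndufb6 257 with Smim27 (0 to 5 counts). Ndufb5 shares 616 bases with Mrpl47 (log2 fold change 0.15, not called), Ndufb11 117 with Rbm10 (-0.08, not called) and Ndufs6 30 with Mrpl36, while Ndufa3 shares 4 with Tfpt, which was called higher (0.85, adjusted p = 0.0375). Ndufb8, also called, shares 134 bases with Gm20538 on the same strand. On the other strand Ndufa2 shares 66 with Tmco6 (-0.75, not called) and Ndufa11 70 with Vmac (0.48, not called). The uncalled Ndufs1 shares 498 with Eef1b2 and Ino80dos together.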

How the data were processed

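Poly-A RNA of liver was sequenced from unstranded libraries, per the labels' protocols. The authors deposited raw read counts per gene and FPKM values for 8 libraries. The tools named in the submitters' processing notes are HISAT2, DESeq2 1.32.0 and HTSeq 0.13.5, and the genome build is GRCm38. Annotation release and strand setting are not given in the sources at hand, so reads of genes overlapping on opposite strands cannot be told apart. The deposited FPKM is the count divided by a gene length and the library total, as checked on the values.

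Counts were fitted in R 4.3.3 with edgeR 4.0.16 (filterByExpr defaults, minimum count 10 and minimum total 15; TMM factors; robust quasi-likelihood F test of treated against control). Calls were made where the Benjamini-Hochberg adjusted p over all 12861 genes tested was under 0.05, and all adjusted p-values come from this fit unless another is named. CPM of single genes uses TMM factors, whereas the summed CPM of cell type markers was scaled to the library total alone. The log2 standard error was derived from the F statistic. The steps were tested on simulated data. Positions, biotypes and exon lengths came from GENCODE M21, whose identifiers matched 24540 of 24547 genes, and promoters from RefSeq. Copies were searched with BLAST 2.17.0. Alternatives were other scalings, filters and tests (DESeq2 1.42.0, limma 3.58.1), FPKM with pseudocounts of 1 and 0.1, a replicate block, length and GC offsets, and leaving out libraries. Every limma-voom result used quality weights for the libraries.

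The members and lists were chosen with earlier results of these data known. Values in every library are given for the 12 called members of smallest adjusted p, the 7 core subunits, the 3 of highest FPKM, the 3 of lowest fold change and the extreme Ndufaf members. The values of 1 of these members are not reported here, and it counts in the totals. Other members with values were chosen to account for every member. Of other lists, the called genes of smallest adjusted p are named.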

Additional observations from a re-analysis of the deposited data

Results flagged for a closer look

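In each of the groups of 4 libraries, the highest and lowest library of every tested member were checked by Dixon's test. Of 90 tests 5 passed its critical value, which is 5.56%, and chance flags about 1 in 20. All 5 concern control libraries. In control 4, Ndufb3 was at 27.03 CPM, beside 18.1 to 19.0 CPM in the other controls. Ndufs5 was at 50.49 CPM there, beside 33.1 to 34.2 CPM. Ndufa4 was at 197.7 CPM there, beside 162 to 165 CPM, and Ndufb6 at 19.26 CPM, beside 11.9 to 12.7 CPM. In control 2, Ndufb5 was at 38.37 CPM, beside 48.7 to 50.3 CPM in the other controls. Control 4 had the lowest macrophage and T and NK cell marker sums of the controls (558 and 9.71 CPM) and control 2 the highest (1581 and 33.25 CPM), and the part of this in the values above was not tested.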

How the results depend on the processing

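Over all genes, 1184 were called. The count was 2215 with DESeq2, 2126 with limma-voom, 480 on log2(FPKM + 1) without a filter, 575 with length and GC offsets and 634 with the replicate block and length offset. With 1 library left out it ran from 183 (without treated 3) to 2330 (without control 4). For complex I, the 23 members called higher became 12 with the length offset, 14 with length and GC offsets and 12 with the block and length offset, and 7 to 31 with 1 library left out. The 0 called lower became 1 with limma-voom, with the replicate block and without controls 2 and 4, and 0 to 1 with 1 library left out. The replicate block alone gave 944 genes, 20 members higher and 1 lower. Labels give no meaning to the replicate numbers. Deviations of same-numbered libraries from their group means correlated at 0.18, 0.06, -0.01 and 0.07. Those of different-numbered libraries correlated at -0.21 to 0.18. Such values cannot show whether same-numbered libraries share more than a number, which was not tested.

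Fold changes near 0 changed sign. Ndufv2 was at -0.0054 with the block and length offset. Ndufs1 was at -0.0037 with library size alone and at -0.0072, -0.0057 and -0.0019 without treated 4, control 1 or control 2, with 0.138 the highest value when 1 library was left out. Ndufs7 and Ndufs8 were at -0.0545 and -0.063 with length and GC offsets. Ndufaf5 was at 0.0523 without control 4 and at 0.2805 without controls 2 and 4, with -0.3543 the lowest value when 1 library was left out. Ndufa10, Ndufaf1 and Ndufab1 took both signs too (0.0628 for Ndufa10 without treated 2, 0.0743 for Ndufab1 with length and GC offsets and 0.0971 for Ndufaf1 without control 4), and 35 tested members stayed positive and 2 negative in every setting. For members given in every library, 491 values stayed on the same side of the threshold, 40 lost a call and 9 gained one. The causes were not tested. Ndufb2, at 13 to 34 counts, had the widest standard error of the members.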
